A study of Homo sapiens with 6 samples.

Results

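Matrix glycoproteins, laminins and the enzymes that process and crosslink collagen were compared between SW480 cells with the heparanase gene HPSE knocked down and their control cells. The set holds 45 genes, chosen as a list of symbols and matched to the Ensembl identifiers of the RNA sequencing table, which has 59192 features in all. Of the 45 genes, 34 had a row of their own, and 30 of these passed a minimum mean of 10 normalized counts over the 6 libraries and were tested. Genes without a row could not be looked up among the table's 33265 assembler loci, which have no coordinates. A missing row therefore does not show that a gene was not expressed. SW480 is a line from a human colorectal adenocarcinoma. Both groups were SW480 cells that stably carry Cas9 from a lentivirus selected with puromycin, and both received a second lentivirus with a guide RNA and EGFP. The SW480-NC libraries (labelled control) came from cells with a control guide, and the SW480-45 libraries (labelled HPSE-knockdown) from cells with a guide against HPSE. The study's text names 1 sequenced knockdown line, SW480-KD1, and SW480-45 was taken to be that line. Each group had 3 libraries from independent experiments, and 1 guide and 1 stable line stand behind each group, so that a difference between the lines other than HPSE cannot be told apart from the knockdown. The sources used here do not say whether the lines are single clones, and the labels name no other treatment.

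The extracellular matrix is a network of collagens and glycoproteins that cells secrete, bind through integrins and remodel. Epithelial cells rest on a basement membrane, whose laminins are trimers of an alpha, a beta and a gamma chain, tied by nidogens to type IV collagen. Fibrillins, fibulins and latent TGF-beta binding proteins (LTBPs) build microfibrils and elastic fibres, matricellular proteins such as osteopontin signal through integrins, and procollagen is hydroxylated and folded inside the cell, trimmed outside it and crosslinked by lysyl oxidases. Heparanase, the product of HPSE, cuts the heparan sulfate chains that many of these proteins bind.

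The libraries held 33221323 to 39802365 reads on the features of the table. Differences are given as log2 fold changes of normalized count + 1, SW480-45 minus SW480-NC, so that a positive value is a higher level in SW480-45. They were tested with limma over the 21703 features that passed the minimum, with Benjamini-Hochberg adjustment over all of them, and a gene was called at an adjusted p under 0.05. HPSE itself had 136, 172 and 146 normalized counts across the SW480-45 libraries against 269.9, 295 and 246 across those of SW480-NC, with no overlap, and just missed the threshold (log2 fold change −0.83, 95% interval −1.17 to −0.50, adjusted p = 0.0547). It was called by DESeq2 (adjusted p = 0.000924) and when limma tested all features (0.0451), those with a mean of at least 50 (0.0460) or those with Ensembl identifiers (0.0462), while edgeR gave 0.0664 and limma without the intensity trend 0.126. The study reports from Western blots that its guides efficiently lowered HPSE in SW480 cells, while only RNA was read here. An exact permutation test of a single gene cannot go below p = 0.1 with 3 libraries against 3, so none is given. In these bulk libraries, fewer cells that express a gene and less RNA per cell cannot be told apart.

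Of the 30 tested matrix genes, 2 were called, LAMA3 and SPP1, and both fell in SW480-45. Over all features, 0.802% were called. No member was called higher with limma or with edgeR's quasi-likelihood test, while 6 were higher at an unadjusted p under 0.05 and 4 were called higher by DESeq2. At an unadjusted p under 0.05, 12 members differed (40.0%), 6 higher and 6 lower, where 16.2% of all features did. Of these 12, FBLN5 and PCOLCE also differed by at least 2-fold, a combination met by 2.42% of all features. The 3 libraries of one line lay wholly above or below those of the other for 12 members (40.0%), 5 higher and 7 lower, where this held for 23.4% of all features. DESeq2 on the recovered reads called 8 members, LAMA3, LAMB2, LAMB3, LTBP3, SPP1, ECM1, TGFBI and PCOLCE, against 3.53% of all features. The members were chosen with earlier results of these data known, and all features include assembler loci without a gene name. These shares are therefore a description and no test of the list. The median log2 fold change of the 30 members was 0.02, and that of all 21703 features was −0.0048. Members differed in both directions, as the plot of log2 fold changes by role shows.

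**Figure D1:**
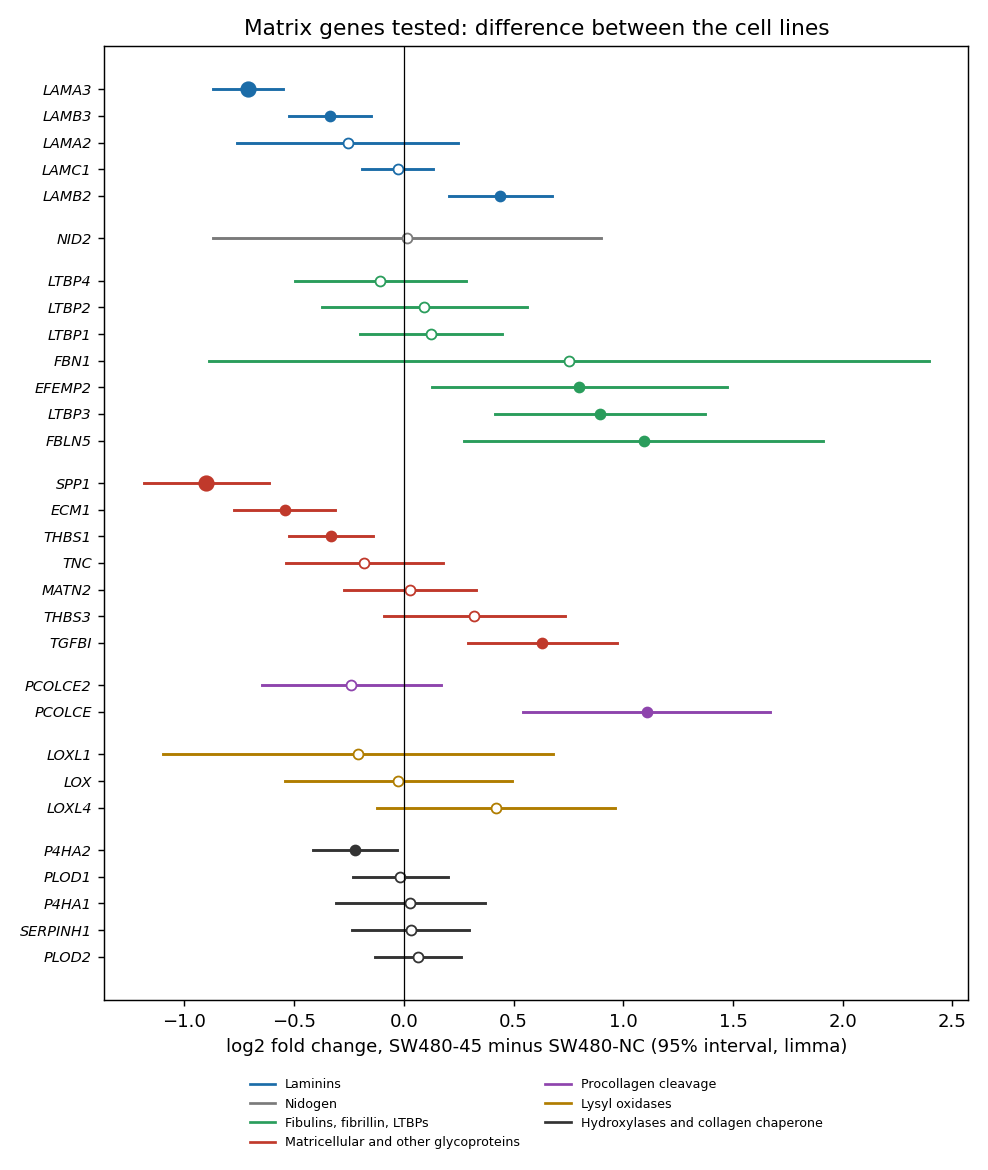
Log2 fold change of normalized count + 1 (SW480-45 minus SW480-NC) for the 30 tested matrix genes, grouped and coloured by role, with 95% intervals from limma; filled points have an unadjusted p under 0.05 and the 2 large points, LAMA3 and SPP1, an adjusted p under 0.05. The values run from −0.90 for SPP1 to 1.11 for PCOLCE.

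The laminins and the matricellular group had intervals that lay wholly below 0, wholly above it and across it, the elastic fibre group lay mostly to the right, and the hydroxylases and the collagen chaperone stayed close to 0.

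The laminins had 9 listed genes, of which LAMA1, LAMA4, LAMA5 and LAMB1 had no row and 5 were tested. Levels were read per kilobase of all annotated exons of a gene, over all its isoforms. The isoforms in use were not determined, so the order of genes by level is approximate. Mean levels over the 6 libraries were 762 normalized counts per kb for LAMC1, 621 for LAMB3 and 252 for LAMA3. For LAMB2 and LAMA2 they were 165 and 3.69. In each library LAMC1 was above LAMB3, LAMB3 above LAMA3, and LAMA2 lowest, as the plot of levels shows, although LAMC1 and LAMB3 overlapped when all 6 libraries were pooled. LAMA3 and LAMB2 had 313 and 140.4 normalized counts per kb as SW480-NC means, well apart, and 191 and 190.4 as SW480-45 means, where their libraries overlapped.

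**Figure D2:**
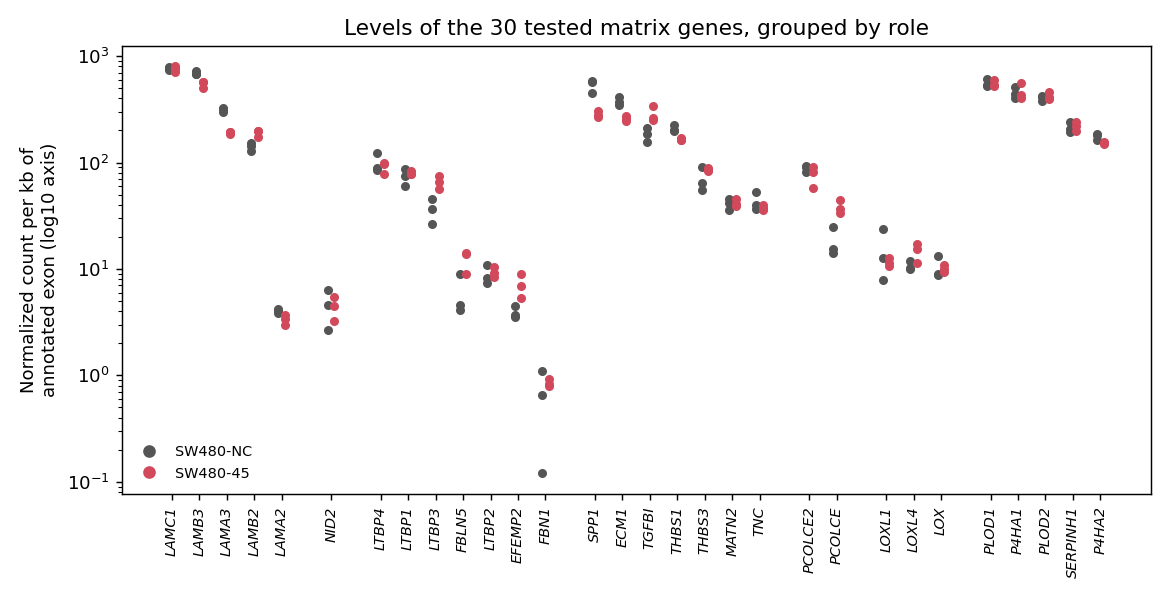
Normalized count per kb of annotated exon (log10 axis) of the 30 tested matrix genes in each of the 3 SW480-NC libraries (grey) and the 3 SW480-45 libraries (red), grouped by role and ordered by mean level within the role. LAMC1 is the highest of the laminins at a mean of 762 and PLOD1 the highest of the hydroxylases and chaperone at 555, while NID2, at 4.46, and FBN1 are near the bottom.

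LAMA3 (ENSG00000053747, chr18:23689443-23956222, plus strand) codes for the alpha chain of the laminin under the hemidesmosomes of epithelia. It had 2705, 2846 and 2871 normalized counts across the SW480-45 libraries against 4378, 4630.0 and 4770.4 across those of SW480-NC. Every SW480-45 library lay well below every SW480-NC library, with a spread within each line that was small beside the gap. The means were 2807 ± 89.5 (SD, n = 3) in SW480-45 and 4593 ± 199 (SD, n = 3) in SW480-NC, and LAMA3 fell by 0.71 on the log2 scale (95% interval −0.87 to −0.55, limma adjusted p = 0.00838). Without SW480-NC replicate 2 the adjusted p was 0.0543, and without any other single library it was 0.0292 to 0.0421, with log2 fold changes of −0.74 to −0.68 over the 6 fits. Without the intensity trend the adjusted p of LAMA3 was 0.0873.

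LAMB3 (ENSG00000196878, chr1:209614870-209652466, minus strand), the beta chain of the same laminin, had 2686, 2678 and 2352 normalized counts in SW480-45 and 3177, 3381 and 3181 in SW480-NC. All 3 SW480-45 libraries were below the lowest SW480-NC library, by a smaller margin than for LAMA3. A log2 fold change of −0.34 (95% interval −0.52 to −0.15) missed the threshold (limma adjusted p = 0.116). DESeq2 called it with an adjusted p of 0.0466.

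LAMC1 (ENSG00000135862, chr1:183023460-183145592, plus strand) codes for the gamma chain shared by most other laminins and was the laminin gene with the highest level per kb. Its libraries held 6006, 6744 and 6291 normalized counts in SW480-45 and 6193, 6514 and 6701 in SW480-NC, and the lines overlapped fully. Its log2 fold change of −0.03 had a 95% interval of −0.19 to 0.13, so a change of the size seen in LAMA3 lay outside the interval (limma adjusted p = 0.874).

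LAMB2 (ENSG00000172037, chr3:49121114-49133118, minus strand) codes for a beta chain best known from the basement membranes of the kidney filter and the nerve-muscle junction. It had 1353, 1365 and 1203 normalized counts in SW480-45 and 982, 873 and 1036 in SW480-NC. Its SW480-45 libraries were all above its SW480-NC libraries, the opposite order to LAMA3 and LAMB3. LAMB2 had a log2 fold change of 0.44 (95% interval 0.21 to 0.67, limma adjusted p = 0.108), and DESeq2 gave an adjusted p of 0.0171. LAMA2, the alpha chain of muscle laminin, was low, with 30.6 to 38.6 normalized counts in SW480-45 and 39.6 to 43.9 in SW480-NC. Its libraries did not overlap, but the interval was wide (log2 fold change −0.26, 95% interval −0.76 to 0.25, adjusted p = 0.600).

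The cell-surface partners of this laminin were read from a separate list of 78 other matrix genes, of which 26 had no row, 19 were under the minimum and 33 were tested. Of the 33, 3 were called, against the 0.802% of all features, and all 3 fell: ITGA6 and ITGB4, the subunits of the hemidesmosome integrin that binds laminin, and COL17A1, the transmembrane collagen of the hemidesmosome. ITGA6 had 13034, 13051 and 13904 normalized counts in SW480-45 and 19952, 20511 and 19259.8 in SW480-NC (log2 fold change −0.58, 95% interval −0.71 to −0.45, adjusted p = 0.00838). ITGB4 had 18555, 19548 and 17617 normalized counts in SW480-45 and 28465, 25048 and 25627 in SW480-NC. For COL17A1 the normalized counts were 2306, 2394 and 2383 in SW480-45 and 3195, 3460.4 and 3413 in SW480-NC. Each of the 3 genes had all SW480-45 libraries below all SW480-NC libraries. On the log2 scale the difference was −0.51 for ITGB4 (95% interval −0.67 to −0.34) and −0.51 for COL17A1 (95% interval −0.67 to −0.35), both with a limma adjusted p of 0.0333. These calls sat near the threshold. The ITGA6 call was lost when SW480-NC replicate 1 (adjusted p = 0.0584) or replicate 2 (adjusted p = 0.0553) was left out. The calls of ITGB4 and COL17A1 were lost whichever single library was left out, with adjusted p of 0.0606 to 0.139 for ITGB4 and 0.0621 to 0.138 for COL17A1, and the log2 fold changes stayed between −0.45 and −0.54 for ITGB4 and between −0.48 and −0.54 for COL17A1. Without the intensity trend the adjusted p was 0.116 for ITGA6, 0.153 for ITGB4 and 0.130 for COL17A1.

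**Figure D3:**
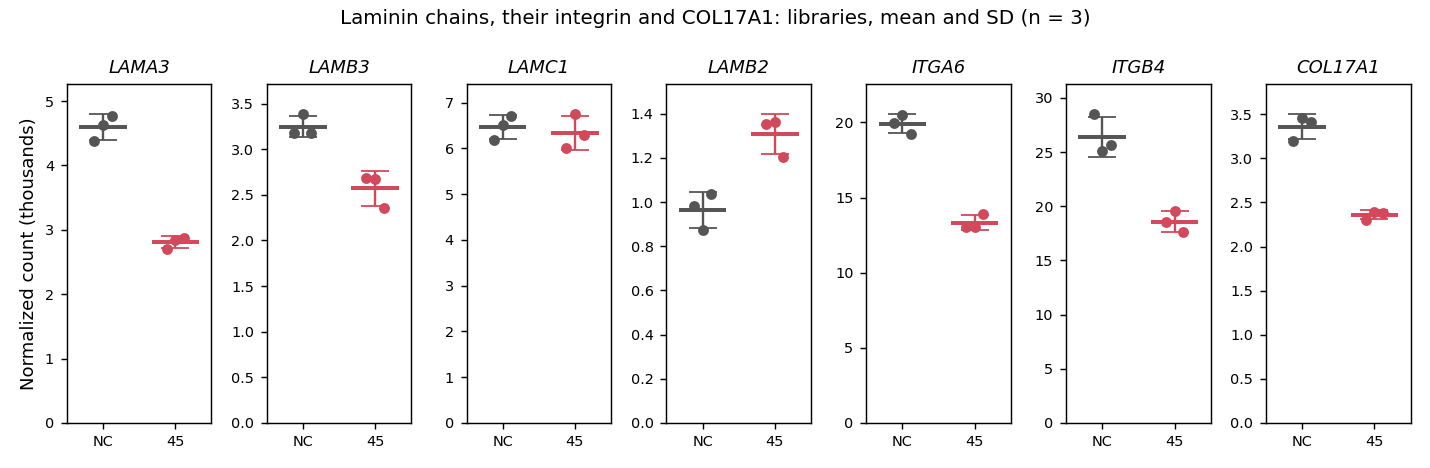
Normalized counts (in units of 1000, axes from 0, a scale of its own for each gene) of 4 laminin chain genes, the integrin genes ITGA6 and ITGB4 and COL17A1 in SW480-NC (NC, grey) and SW480-45 (45, red); points are libraries, thick bars means and thin bars the SD (n = 3). LAMA3, LAMB3, ITGA6, ITGB4 and COL17A1 lie lower in every SW480-45 library, LAMB2 lies higher and LAMC1 overlaps.

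The plot of the laminin chains shows that the lower values were seen in LAMA3 and LAMB3 and in the receptor genes ITGA6 and ITGB4, and not in LAMC1. Of the 6 laminin receptor genes tested, 3 had an unadjusted p under 0.05, as 16.2% of all features did, all lower, the third being ITGB1 (log2 fold change −0.27, 95% interval −0.45 to −0.10, adjusted p = 0.154).

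The start regions of the 3 members that hold TGANTCA, the motif of the AP-1 factor family, are shown. This motif was picked from those searched because these genes, LAMA3, LAMB3 and ECM1, all had lower values in SW480-45. The direction of the members with the other motifs was not compared, and a role of AP-1 in these values was not tested. The windows are those of RefSeq on GRCh38.p14, from 250 bases before to 50 bases after each annotated start, and 39 of the 45 members had at least 1, with 51 windows in all. The motif reads the same on both strands. Each line gives the 27 bases around a match, on the strand of the gene, with the match in capitals.
LAMA3, chr18:23872885-23872911: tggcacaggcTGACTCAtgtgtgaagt
LAMA3, chr18:23872941-23872967: cttcctcaccTGAGTCAggcaggcccg
LAMB3, chr1:209651425-209651451: tcagccactcTGACTCAttcactttgg
ECM1, chr1:150507895-150507921: ctggattctcTGAATCAgtttctcttg
ECM1, chr1:150508021-150508047: cagctgggacTGAGTCAtggcaggaag

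The first matching base lay 125 and 69 bases before the start of LAMA3, 67 before that of LAMB3, and 204 and 78 before that of ECM1. The RefSeq starts used here lie inside the GENCODE spans of all 3 genes, far inside for LAMA3. The motif was present in 5.88% of the member windows and in 7.71% of all 35116 windows, so it was not more frequent among the members. The other motifs searched on both strands were GGAATG, known from TEAD sites (11.8% of member windows, 14.0% of all), ACGTG, the core of hypoxia response elements (19.6% and 21.4%), TATAAA (7.84% and 11.5%) and the GC box GGGCGG (68.6% and 45.0%). A match is a run of letters, and no binding was measured.

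The nidogens had 2 listed genes, and NID1 had no row. NID2 (ENSG00000087303, chr14:52004803-52069228, minus strand), which links laminin to type IV collagen, was low, at 4.46 normalized counts per kb. It had 34.8, 28.9 and 20.7 normalized counts in SW480-45 and 29.3, 40.6 and 16.97 in SW480-NC, overlapping fully. The log2 fold change of 0.01 had a 95% interval of −0.87 to 0.90, wide enough to hold a change of nearly 2-fold in either direction (limma adjusted p = 0.991). NID2 shares exon bases on the opposite strand with RTRAF, which had a mean of 3369.7 normalized counts.

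Fibulins, fibrillins and LTBPs, the elastic fibre and microfibril proteins, had 11 listed genes, 1 without a row (EFEMP1), 3 under the minimum (FBLN1, FBLN2, FBN2) and 7 tested. None was called with limma or edgeR, and DESeq2 called LTBP3, where it called 3.53% of all features. At an unadjusted p under 0.05, 3 differed, all higher (FBLN5, EFEMP2, LTBP3), where 16.2% of all features did. The log2 fold change was above 0 for 6 of the 7, but without SW480-NC replicate 2 FBN1 (−0.03) and LTBP1 (−0.01) also lay just below 0.

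FBLN5 (ENSG00000140092, chr14:91869412-91947987, minus strand) codes for a fibulin needed for elastic fibre assembly. It had 44.3, 68.6 and 70.7 normalized counts in SW480-45 and 23.01, 20.3 and 44.5 in SW480-NC. The lowest SW480-45 library and the highest SW480-NC library met at almost the same value, so the groups overlapped. The means were 61.2 ± 14.7 (SD, n = 3) in SW480-45 and 29.3 ± 13.3 (SD, n = 3) in SW480-NC, with a log2 fold change of 1.09 (95% interval 0.28 to 1.91) that did not pass the adjusted threshold with limma (adjusted p = 0.202) or DESeq2 (adjusted p = 0.121). The values rest on 21 to 76 reads per library. The study reports that its qRT-PCR of FBLN5 matched its sequencing. Its primers for FBLN5 are shown because they place that assay on the gene. They match chromosome 14, where the gene is on the minus strand, in exons 2 and 3 of the 12 exons of transcript FBLN5-201, the first at 91942936 to 91942957 and the second at 91940579 to 91940599, with a product of 89 bases.
FBLN5 forward primer: ctcactgttaccattctggctc
FBLN5 reverse primer: gactggcgatccaggtcaaag

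LTBP3 (ENSG00000168056, chr11:65538805-65558930, minus strand), which holds latent TGF-beta in the matrix, had 769.7, 679 and 584 normalized counts in SW480-45 and 464, 269 and 379 in SW480-NC. The lines did not overlap, and the gap between them was narrower than the spread within each. This gave a log2 fold change of 0.89 (95% interval 0.42 to 1.37), with an adjusted p of 0.109 from limma and 0.00214 from DESeq2. EFEMP2 (ENSG00000172638, chr11:65866441-65873592, minus strand), a fibulin that brings lysyl oxidase to elastin, had 28.5, 47.9 and 37.7 normalized counts in SW480-45 and 19.9, 24.1 and 19.1 in SW480-NC. Its libraries did not overlap either, at a low level (log2 fold change 0.80, 95% interval 0.13 to 1.47, adjusted p = 0.240). EFEMP2 shares exon bases on the opposite strand with MUS81, which had a mean of 854 normalized counts and a log2 fold change of 0.04, and whether the counting used strand is not given in the sources used here, so reads of the pair may not have been told apart.

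LTBP4 (ENSG00000090006, chr19:40592883-40629818, plus strand) was the member of this group with the highest level per kb, 95.03. It had 780.3, 802 and 633 normalized counts in SW480-45 and 1002, 686 and 720.0 in SW480-NC, with overlap (log2 fold change −0.11, 95% interval −0.50 to 0.28, adjusted p = 0.794). LTBP1, a TGF-beta carrier, and LTBP2, which binds fibrillin, had log2 fold changes of 0.12 (95% interval −0.20 to 0.45) and 0.09 (95% interval −0.37 to 0.56). The libraries of LTBP1, LTBP2 and LTBP4 overlapped between the lines and those of LTBP3 did not, but a difference between the genes was not tested. FBN1, the main fibrillin, had 14.8, 12.6 and 13.2 normalized counts in SW480-45 and 17.8, 1.93 and 10.6 in SW480-NC, and its log2 fold change of 0.75 (95% interval −0.89 to 2.39) became −0.03 without SW480-NC replicate 2.

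The 3 genes of this group under the minimum were close to the limit of detection, where a count of 0 allows up to 3 reads. FBLN2 had 8, 6 and 4 reads in the SW480-45 libraries and 0 in each SW480-NC library. With the SW480-NC group set at a floor of 3 reads, the normalized level of FBLN2 was 5.65-fold higher in SW480-45. This takes its 18 reads in SW480-45 as exact, so it is no firm minimum. FBLN2 was outside the main fit, and limma without the filter did not call it (adjusted p = 0.276). FBLN1 had 9 reads over the SW480-45 group and 11 over SW480-NC. All 6 reads of FBN2 in SW480-45 and all 14 in SW480-NC came from 1 library each.

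Matricellular and other glycoproteins had 9 listed genes, with SPOCK1 without a row, SPARC under the minimum at 2 reads in each group, and 7 tested. One was called, SPP1, which fell. At an unadjusted p under 0.05, SPP1, ECM1 and THBS1 were lower and TGFBI was higher, where 16.2% of all features differed. DESeq2 called SPP1, ECM1 and TGFBI, where it called 3.53% of all features.

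SPP1 (ENSG00000118785, chr4:87975650-87983426, plus strand) codes for osteopontin, a secreted phosphoprotein that binds integrins and CD44, and had the highest mean level per kb of its group over the 6 libraries, 409. This order held in SW480-NC, while in SW480-45 SPP1 and TGFBI both had a mean of 285. It had 648, 623 and 710.3 normalized counts across the SW480-45 libraries against 1315, 1045 and 1359 across those of SW480-NC. The highest SW480-45 library was well below the lowest SW480-NC library, which was replicate 2. The means were 661 ± 44.9 (SD, n = 3) in SW480-45 and 1239.7 ± 170.1 (SD, n = 3) in SW480-NC, and SPP1 fell by 0.90 on the log2 scale (95% interval −1.19 to −0.61, limma adjusted p = 0.0333). The call was weak against the loss of a library: the adjusted p was 0.0368 without SW480-NC replicate 2, but 0.130, 0.126 and 0.0675 without SW480-45 replicates 1, 2 and 3, and 0.131 and 0.0651 without SW480-NC replicates 1 and 3. The log2 fold change over these fits was −1.02 to −0.83, and without the intensity trend the adjusted p was 0.124.

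ECM1 (ENSG00000143369, chr1:150508062-150513789, plus strand), a secreted glycoprotein best known from the skin, whose start region is shown above, had 816, 915 and 854 normalized counts in SW480-45 and 1160.0, 1235 and 1379 in SW480-NC. The lines were well apart. ECM1 had a log2 fold change of −0.54 (95% interval −0.77 to −0.31), which just missed the threshold in limma (adjusted p = 0.0654), while it was called when only features with a mean of at least 50 were tested (adjusted p = 0.0479) and in DESeq2 (adjusted p = 0.00121). THBS1 (ENSG00000137801, chr15:39581079-39599466, plus strand), an adhesive protein that activates latent TGF-beta, had 1483, 1572 and 1505 normalized counts in SW480-45 and 1813, 1863 and 2069.8 in SW480-NC. These did not overlap (log2 fold change −0.33, 95% interval −0.52 to −0.14, adjusted p = 0.128).

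TGFBI (ENSG00000120708, chr5:136028895-136063818, plus strand), a TGF-beta induced protein that binds collagens and integrins, had 1976, 2644 and 2068 normalized counts in SW480-45 and 1447, 1227 and 1637 in SW480-NC. All SW480-45 libraries were above all SW480-NC libraries. The log2 fold change was 0.63 (95% interval 0.29 to 0.97), with an adjusted p of 0.110 from limma and 0.00433 from DESeq2. The other 3 genes of the group overlapped between the lines. TNC, the tenascin of healing tissue, had a log2 fold change of −0.18 (95% interval −0.54 to 0.18), MATN2, a filament-forming matrilin, 0.03 (95% interval −0.27 to 0.33), and THBS3 0.32 (95% interval −0.09 to 0.73). THBS3 shares exon bases with MTX1 on the opposite strand.

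**Figure D4:**
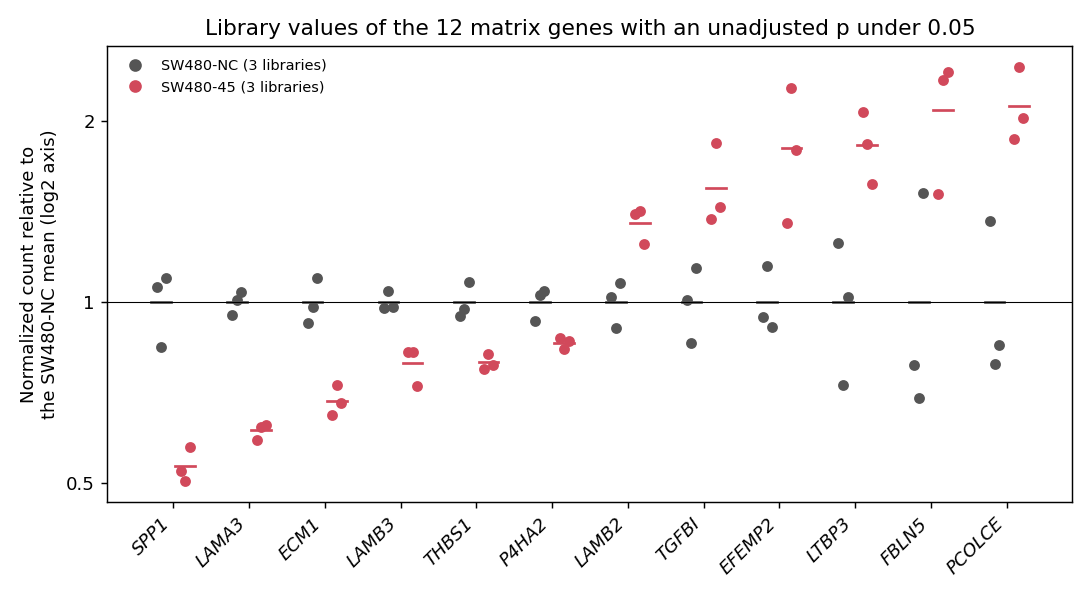
Normalized count of each library divided by the SW480-NC mean (log2 axis) for the 12 matrix genes with an unadjusted p under 0.05, ordered by log2 fold change; grey points are the 3 SW480-NC libraries, red points the 3 SW480-45 libraries and bars the means. FBLN5 is the only one of the 12 whose groups overlap, at 44.3 normalized counts in SW480-45 replicate 1 and 44.5 in SW480-NC replicate 3.

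The plot of library values shows the wider spread of the genes on the right, FBLN5, PCOLCE, EFEMP2 and LTBP3, beside the tight groups of LAMA3, LAMB3 and THBS1. Except LTBP3, the genes with the wide spread had at most 157 normalized counts in a library, reached by PCOLCE.

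Of the 4 genes of procollagen cleavage, the proteinases BMP1 and TLL1 had no row, so the enzymes themselves were not analysed here, and their 2 enhancers were tested. PCOLCE (ENSG00000106333, chr7:100602177-100608175, plus strand) codes for the protein that binds procollagen and speeds removal of its C-propeptide. It had 119, 157 and 129 normalized counts in SW480-45 and 86.8, 50.2 and 54.1 in SW480-NC. All SW480-45 libraries were above the highest SW480-NC library, replicate 1, which stood above the other SW480-NC libraries. The means were 135 ± 19.7 (SD, n = 3) in SW480-45 and 63.7 ± 20.1 (SD, n = 3) in SW480-NC. Its log2 fold change of 1.11 (95% interval 0.54 to 1.67) was the largest of the 30 members, and the gene was called by DESeq2 (adjusted p = 0.00726) but not by limma (adjusted p = 0.101). The study reports that its qRT-PCR and Western blot of PCOLCE matched its sequencing. The study's qRT-PCR primers for PCOLCE match chromosome 7 in exons 2 and 3 of transcript PCOLCE-201, at 100603442 to 100603460 and 100603981 to 100604001, with a product of 140 bases.
PCOLCE forward primer: gtgcggaggggatgtgaag
PCOLCE reverse primer: cgaagactcggaatgagaggg

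PCOLCE2 (ENSG00000163710, chr3:142815922-142889206, minus strand), the second enhancer, had 82.6 normalized counts per kb, the highest of this role. It had 206, 286 and 318 normalized counts in SW480-45 and 331, 322 and 291 in SW480-NC. The lines overlapped, and the log2 fold change was −0.24 (95% interval −0.65 to 0.17, limma adjusted p = 0.540).

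Lysyl oxidases oxidise lysines of collagen and elastin so that crosslinks form. LOXL2 had no row, and the other 3 listed genes were tested. None had an unadjusted p under 0.05 with limma, and neither edgeR nor DESeq2 called one. LOXL1 (ENSG00000129038, chr15:73925989-73952137, plus strand), at a mean of 13.2 normalized counts per kb the highest of the 3, had 46.4, 41.5 and 38.6 normalized counts in SW480-45 and 86.8, 46.4 and 28.6 in SW480-NC. The SW480-NC libraries spread on both sides of the SW480-45 libraries (log2 fold change −0.21, 95% interval −1.10 to 0.68, adjusted p = 0.826). The rank of LOXL1 rested on SW480-NC replicate 1, and in SW480-45 LOXL4 was above it in each library, with means of 14.7 and 11.6 normalized counts per kb. LOX had a log2 fold change of −0.03 (95% interval −0.54 to 0.49) and LOXL4 of 0.42 (95% interval −0.12 to 0.96). The intervals were wide at these levels. LOX shares exon bases with SRFBP1, and LOXL1 with LOXL1-AS1 (mean 71.98 normalized counts), each on the opposite strand. SRFBP1 had a mean of 1019 normalized counts and a log2 fold change of −0.36 (limma unadjusted p = 0.00177). As the strand setting is not given, reads of each pair may not have been told apart.

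The hydroxylases and the collagen chaperone act on procollagen in the endoplasmic reticulum. PLOD3 had no row, and the other 5 genes were tested. None was called by limma, edgeR or DESeq2, and 1 had an unadjusted p under 0.05. This was P4HA2 (ENSG00000072682, chr5:132191838-132295315, minus strand), a catalytic subunit of collagen prolyl hydroxylase, with 1314, 1256 and 1298 normalized counts in SW480-45 and 1399, 1548 and 1571 in SW480-NC. The libraries did not overlap, but the difference was small (log2 fold change −0.22, 95% interval −0.41 to −0.03, adjusted p = 0.248).

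PLOD1 (ENSG00000083444, chr1:11934205-11975538, plus strand), a lysyl hydroxylase, had the highest mean level of this group over the 6 libraries, 555 normalized counts per kb, although P4HA1 was above it in SW480-45 replicate 3. It had 2847, 3206 and 2759 normalized counts in SW480-45 and 2859.8, 2795 and 3264 in SW480-NC, with full overlap and a log2 fold change of −0.02 (95% interval −0.23 to 0.20). P4HA1, the other prolyl hydroxylase subunit, had a log2 fold change of 0.03, PLOD2, a lysyl hydroxylase of collagen telopeptides, 0.06, and SERPINH1, the collagen chaperone of the endoplasmic reticulum, 0.03. The 95% intervals of all 5 genes lay within −0.41 and 0.37. At 1210.1 to 3494 normalized counts in each library, these genes bound a difference more tightly than the lysyl oxidases did.

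In the list of other matrix genes 11 of the 33 tested had an unadjusted p under 0.05 (33.3%, where 16.2% of all features did), 6 higher and 5 lower, with the 3 called genes among them. DESeq2 called 5, the same 3 with COL7A1 (adjusted p = 0.0116) and ELN (adjusted p = 0.0217), where it called 3.53% of all features. Among the collagens, COL7A1, which forms anchoring fibrils below the hemidesmosome, had 128, 92.1 and 112 normalized counts in SW480-45 and 26.2, 40.6 and 68.9 in SW480-NC (log2 fold change 1.37, 95% interval 0.57 to 2.16, adjusted p = 0.128). This was the opposite direction to COL17A1, and the study reports that its qRT-PCR of COL7A1 matched its sequencing. Among the glycoproteins, ELN, which codes for elastin, the core of the fibres that fibulins assemble, had 234, 219 and 189 normalized counts in SW480-45 and 152, 130.4 and 103 in SW480-NC (log2 fold change 0.75, 95% interval 0.33 to 1.16, adjusted p = 0.116). Neither gene overlapped between the lines. Of the 8 glycoprotein genes tested, 4 had an unadjusted p under 0.05, all higher, and of the 12 tested genes of collagen processing 1 did, TRAM2, which takes part in collagen synthesis (log2 fold change −0.24, 95% interval −0.39 to −0.09, adjusted p = 0.147).

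Markers of cell types were read beside these values. EPCAM, KRT8, KRT19, KRT20, VIL1 and CDX2, markers of colon epithelium, were all measured in both lines, while CDH1, CDX1 and KRT18 had no row. The summed level of the 6 colon epithelial markers with a row, of 9 listed, was 111278 to 119777 normalized counts in SW480-45 and 128944 to 136556 in SW480-NC, lower in each SW480-45 library. Most of this sum was KRT8, which was lower in every SW480-45 library (log2 fold change −0.21, limma adjusted p = 0.141). KRT20 fell (log2 fold change −0.81, limma adjusted p = 0.00719). EPCAM, KRT19 and CDX2 also had log2 fold changes below 0 (−0.09, −0.24 and −0.26), and the lines overlapped for KRT19 and CDX2. Only VIL1 went the other way, higher in every SW480-45 library (log2 fold change 0.20, limma adjusted p = 0.225). The part of these markers in the lower LAMA3, LAMB3, ITGA6, ITGB4 and COL17A1 values was not tested. The 4 fibroblast markers with a row, of 7 listed, summed to 279.8 to 387 in SW480-45 and 229 to 264 in SW480-NC. Most of this sum was COL1A1, and COL1A2 had 1 read in all over the 6 libraries. The 3 endothelial markers summed to 28.0 to 43.2 in SW480-45 and 12.6 to 26.5 in SW480-NC, with CDH5 at 0 in each SW480-45 library. CD14, the leukocyte marker with a row of 4 listed, had 38.6 to 44.3 and 28.97 to 46.7. The part of these markers in the higher FBLN5, LTBP3, EFEMP2, TGFBI and PCOLCE values was not tested.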

How the data were processed

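RNA of SW480 cells was sequenced on an Illumina instrument from 3 libraries of SW480-45 and 3 of SW480-NC. The authors deposited a normalized signal for each feature, its gene count over the library's size factor. The submitters' processing notes name bcl2fastq, HISAT2, DESeq2 and the build GRCh38, and the study's text names Cuffdiff, while the assembler, the counting tool, its strand setting and the annotation are not given in the sources used here. Of the 59192 features, 25927 carry Ensembl identifiers and 33265 are loci of an assembler, without coordinates. Gene names and coordinates were taken from GENCODE 29 on GRCh38 by Ensembl identifier. Of its 19951 protein-coding genes, 7459 (37.4%) had no row, and of the 45 members 11 (24.4%) had none. Values rose in steps of 1 read, which gave back the reads, and 100.0% of values came out whole within 0.05 of a read. Intervals and floors from reads cover counting error only.

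A mean minimum of 10 left 21703 features, which were tested as log2(normalized count + 1) with limma 3.58.1 (R 4.3.3). The fit used an intensity trend, with Benjamini-Hochberg adjusted p over these features. The added count of 1 shrinks fold changes of low genes, but a library near 0 can enlarge them. FBN1, for example, had a log2 fold change of 0.75 here and 0.43 in DESeq2. Alternatives were edgeR 4.0.16 (quasi-likelihood) and DESeq2 1.42.0, both on recovered reads, a pseudocount of 5, no filter, a minimum of 50, TMM rescaling, quantile normalization, no intensity trend, Ensembl identifiers only, a replicate block and each library left out. The steps were tested on simulated data. Levels per kb used all annotated exons of a gene. The named genes are HPSE, members with an unadjusted p under 0.05, FBLN5, PCOLCE, the member with the highest level per kb in each role, and other matrix genes with an adjusted p under 0.05 or an unadjusted p under 0.01. The members and lists were chosen with earlier results of these data known. No gene set test was run. Promoter windows are from RefSeq (GRCh38.p14). Primer sequences are the study's own. Plots were made in Python 3.11.15 (matplotlib 3.10.9).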

Additional observations from a re-analysis of the deposited data

How the results depend on the processing

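The count of matrix genes at an unadjusted p under 0.05 (9 to 13) kept within 1.5 times in every alternative run. Their median log2 fold change ranged from −0.02 to 0.06, near 0 and of either sign. No log2 fold change of a called gene reversed. The calls depended on how the spread was estimated. Without the intensity trend 11 features, 0 members and 0 other matrix genes were called, with adjusted p of 0.0873 for LAMA3 and 0.124 for SPP1 and with 11 members still at an unadjusted p under 0.05. DESeq2 called 767 features, 8 members and 5 other matrix genes, and edgeR 136, 2 and 3. Leaving out a library gave 29 to 93 features, 1 member in each of the 6 fits, and 0 to 1 other matrix genes. The cause was not tested, beyond the fewer samples in those fits. The replicate block called 12 features, 0 members (LAMA3 at 0.0737, SPP1 at 0.0842, 11 at an unadjusted p) and 0 other matrix genes. Same-numbered libraries did not deviate together (r of 0.0025, −0.020 and 0.0074 over features). These values cannot settle whether libraries of the same number came from the same experiment. The block also gave 0.0976 for ITGA6. Over single genes, the 5 called genes lost their call in 30 fits, and genes not called gained one in 13. Another 558 fits were counted as unchanged, most of them for genes never called. For members not at an unadjusted p under 0.05, this meant a log2 fold change that moved by less than its SD within lines. Depth limited FBLN1, FBLN2, FBN2 and SPARC, at 2 to 18 reads in a group with any.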

Other observations

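DAG1, which codes for dystroglycan, a laminin receptor outside the integrin family, had 1067 normalized counts in SW480-45 replicate 1 and 5735 to 6566 in the other 5 libraries, a gap of 5.37-fold between the lowest and the next library. Among 6810 features whose mean reached 1000 normalized counts, 13 had a lowest library more than 4-fold below the second lowest. The gene was picked after its values were seen, and its log2 fold change between the lines was −0.90 (95% interval −2.30 to 0.49, limma adjusted p = 0.501). Without SW480-45 replicate 1 it was −0.08.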
